A study of Mus musculus with 2 samples.

Results

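The genes described here make and control the machinery of protein synthesis in mouse liver: the initiation factors (eIF), the elongation factors (eEF), the termination factors, the poly(A)-binding protein and the aminoacyl-tRNA synthetases. A gene was included when a probe set was annotated to it alone and its symbol began with Eif or Eef and a digit (Eif2s3y left out), was a capital letter followed by ars or ars2, or was Pabpc1, Gspt1 or Etf1. The rule gave 71 genes, read by 97 probe sets, of 8251 genes and 10833 probe sets named in this way. A probe set is a group of short oligonucleotides on the array that together report 1 transcript. Both samples were total RNA sold by Clontech as a liver preparation under 1 catalogue number, each run on 1 Affymetrix array, and they form 1 group with no treatment. The sources used here do not give strain, sex, age or the number of animals, or say whether the samples differ by animal or lot, so the spread between them may be purely technical. With 2 arrays in 1 group there is no comparison between conditions, and no p-value was computed.

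Translation starts when eIF2 brings the initiator tRNA to the small ribosomal subunit, eIF3 holds the complex together, and the eIF4 factors load it on the capped messenger RNA. Elongation factor eEF1A then delivers each charged tRNA, eEF2 moves the ribosome along, and eRF1 with eRF3 releases the finished chain. The synthetases charge each tRNA with its amino acid. The liver makes most plasma proteins and so translates heavily, and its supply of amino acids varies with feeding.

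The titles of both samples say liver, while their source field says spleen. Of 10 hepatocyte genes, all 10 were above background on both arrays, with Alb at 64627 and 65800 and Ttr lowest of them at percentile 96.5. Of 8 measured lymphocyte and spleen genes 0 were above it, Cd79a being brightest at 450.3 and 333.4. Macrophage genes were above it in 4 of 5 cases and red cell precursor genes in 1 of 4. Of 22 listed genes of pancreatic acinar cells, a list drawn up after their values were seen, 13 were measured and 12 were above background. Ctrb1, encoding a chymotrypsinogen, gave 22100 and 22327, Prss2, encoding a trypsinogen, 8217 and 8127, and the dimmest, Pnliprp2, 151.9 and 209.7. Both samples thus carried transcripts of a cell type that makes much secreted protein, and its part in the signals of the translation genes was not tested. In bulk RNA, fewer cells of a type and less RNA per cell cannot be told apart.

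A gene was read from its brightest probe set, and signals are in the linear units of the deposited table, written for replicate 1 and then replicate 2. To set a background, 118 genes typical of brain, testis, retina or striated muscle were taken, and the 95th percentile of their signals was 511.2 for replicate 1 and 431.0 for replicate 2. Above background means above this threshold on both arrays, and a gene under it is not thereby absent. A percentile is the place of the gene's signal among all 8251 named genes of the array. Probe brightness depends on probe sequence, so signals and percentiles of different genes place their probe sets and do not rank transcripts.

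Of the 71 genes, 31 (43.7%) were above background on both arrays, against 29.5% of all named genes. By probe set the count was 35 of 97, against 24.5% of all probe sets that name 1 gene. A further 8 genes were above the threshold on 1 array, 7 of them on replicate 2, where the threshold was lower. The remaining 32 were above it on neither. Of all 8251 named genes, 405 were above it on 1 array and 5414 on neither. More of all named genes also passed on replicate 2 (2779) than on replicate 1 (2490). The median percentile of the 71 genes was 69.4, and that of all named genes 49.7. The genes ran from percentile 5.08 for Eif4h to 99.8 for Eef1a1, with 10 genes above the 90th percentile and 14 below the 50th. Among other parts of the protein machinery picked by symbol, 21 of 35 ribosomal protein genes and 33 of 37 proteasome subunit genes were above background, with median percentiles of 94.0 and 88.0. The translation genes thus covered most of the array's signal range.

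**Figure D1:**
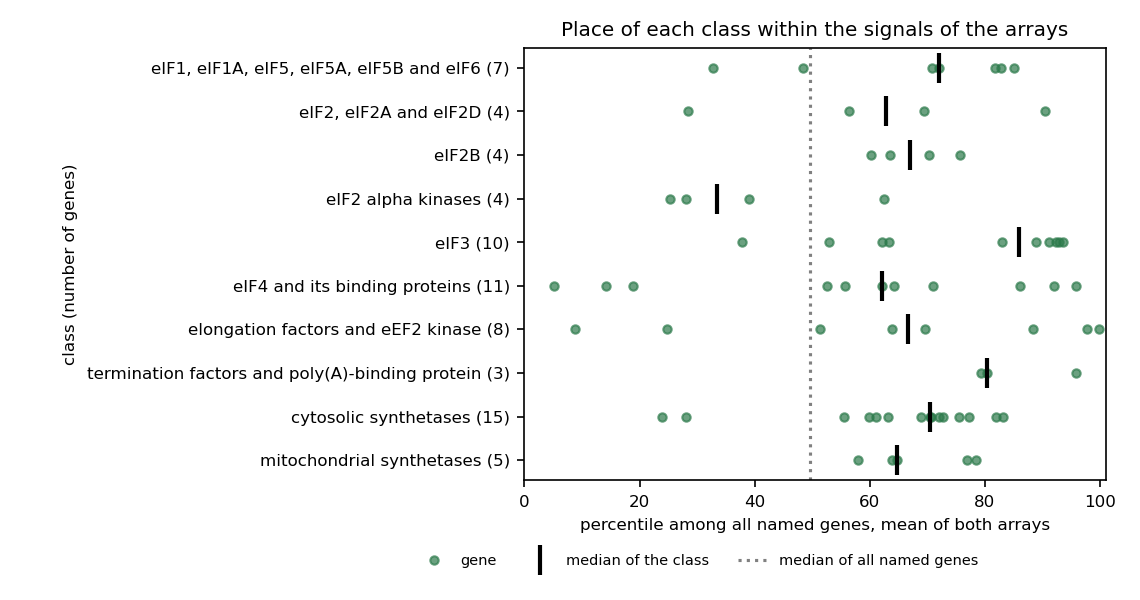
Percentile of each of the 71 genes among all named genes (mean of both arrays, x axis) by role class (y axis), with the class median as a bar and the median of all named genes as a dotted line. The eIF3 median lies at 85.9 and that of the eIF2 alpha kinases at 33.5, the only class median left of the dotted line.

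Elongation factors held the brightest member. Eef1a1, which encodes the main tRNA-delivering factor eEF1A1, gave 35379 and 38769 (mean 37074 ± 2397, SD, n = 2 arrays), and was the only translation gene in the top 1% of the array's genes. Eef2, the translocation factor, gave 7386 and 7893. Eef1d, the delta subunit of the exchange factor that recharges eEF1A with GTP, gave 1458 and 1455. All 3 lay above background on both arrays, and the arrays lay close together for each.

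The other 5 genes of this class were not above it on both. Eef1b2, the beta subunit of the exchange factor, gave 341.4 and 456.5, and its gamma subunit Eef1g gave 38.0 and 9.20. Eef1a2, the eEF1A form of muscle and neurons, gave 459.9 and 545.1, above the threshold on replicate 2. Brain and striated muscle genes belong to the list that sets the threshold, so few of them could lie above it (5 of all 118 did), and their counts do not bear on the source of the Eef1a2 signal, which was not tested. Probe sequences were not used here, so signal shared between the closely related Eef1a1 and Eef1a2 transcripts cannot be told apart. Eef2k, the kinase that inhibits eEF2, gave 52.1 and 88.9, and Eef1akmt1, a lysine methyltransferase of eEF1A, 259.7 and 211.6.

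The eIF3 complex, the scaffold of the small subunit during initiation, had 6 of 10 measured subunit genes above background, against 29.5% of all named genes. Eif3c gave 2559 and 2785, Eif3l 2160 and 2758, and Eif3k 2197 and 2237. Eif3b gave 2067 and 1893, Eif3d, whose product can bind the cap, 1422 and 1691, and Eif3m 1018 and 895.9. These 6 subunits were well over the threshold on both arrays by their brightest sets. With the mean of a gene's sets Eif3l and Eif3b fell under it. In that setting 5 of the 10 subunits were above, Eif3a among them, against 32.6% of all named genes. Eif3a, the largest scaffold subunit, was not above it at 375.2 and 389.1, and neither were Eif3j1 (451.9 and 291.1), Eif3e (251.7 and 248.0) and Eif3f (123.3 and 149.0). Subunits of 1 complex thus fell on both sides of the threshold.

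For eIF2, the carrier of the initiator tRNA, the signals were spread likewise. Its gamma subunit Eif2s3x gave 1845 and 1775, and its beta subunit Eif2s2 gave 107.6 and 66.5. The alpha subunit, which the stress kinases phosphorylate, was not analysed here. Eif2a and Eif2d encode separate factors that can deliver initiator tRNA without eIF2. Eif2a gave 251.2 and 325.6, and Eif2d 510.4 and 483.3, just under the threshold on replicate 1 and above it on replicate 2. In eIF2B, the exchange factor that reloads eIF2 with GTP, Eif2b4 (650.7 and 649.9) and Eif2b5, the catalytic subunit (519.0 and 517.2), were above background. Eif2b5 passed on replicate 1 by a narrow margin, and its other set (222.1 and 238.2) was under the threshold on both arrays. Eif2b1 (367.7 and 401.5) and Eif2b2 (364.1 and 305.4) were under it on both arrays.

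Of the 4 kinases of the eIF2 alpha subunit, 0 were above background on both arrays, against 29.5% of all named genes, and 4 genes are too few to set this count apart from that share. Eif2ak1, the haem-regulated kinase, gave 308.8 and 448.6 and so passed on replicate 2 alone. Eif2ak2, activated by double-stranded RNA, gave 144.9 and 138.7. Eif2ak3, the kinase of the endoplasmic reticulum stress response, gave 79.3 and 66.7, and Eif2ak4, the sensor of uncharged tRNA, 76.5 and 92.1. Apart from Eif2ak1, these signals were far under the threshold on both arrays.

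The eIF4 group binds the cap, unwinds the messenger's leader and recruits the ribosome. The cap-binding protein itself, Eif4e, gave 47.3 and 50.1, and the related Eif4e2 gave 437.9 and 299.4. Eif4ebp2, a repressor that holds eIF4E when mTOR is inactive, gave 4102 and 4625, and its relative Eif4ebp1 gave 365.4 and 430.9. By their brightest sets, the repressor Eif4ebp2 was above background and the cap-binding Eif4e far under it, each on both arrays. Of the 3 sets of Eif4ebp2, 1 was under the threshold (178.3 and 159.0), as was the other set of Eif4e (53.4 and 4.20). These signals do not rank the transcripts of these genes. Eif4a2, a helicase, gave 2260 and 2073, and Eif4b, which stimulates the helicase, 1281 and 1114. The second stimulator Eif4h gave 14.4 and 15.4, the lowest percentile of all 71 genes, from a single probe set. The scaffold relatives Eif4g2 (250.5 and 242.8) and Eif4g3 (259.1 and 298.9) and the eIF4E transporter Eif4enif1 (30.1 and 39.9) were not above background. Eif4a1, the other helicase, gave 997.3 and 307.5 and is described with the differences between the arrays.

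Among the factors for start codon choice and subunit joining, Eif1b (901.0 and 1009), Eif5, the GTPase activator of eIF2 (851.8 and 928.5), and Eif6, which keeps the large subunit free (1147 and 1078), were above background. Eif1a gave 470.5 and 597.7 and Eif1ax 497.5 and 628.0. Both encode eIF1A proteins and passed on replicate 2 alone. Eif5b, the subunit joining GTPase, gave 183.4 and 237.7. Eif5a, the hypusine-bearing factor that helps ribosomes past difficult stretches, gave 167.2 and 61.3. Termination was covered by Etf1, which encodes eRF1 (919.8 and 742.7), and Gspt1, which encodes eRF3 (782.8 and 767.8). Pabpc1, which binds the poly(A) tail and eIF4G, gave 3858 and 4839. All 3 of these last genes were above background on both arrays; at the 99th percentile threshold Pabpc1 alone of them was.

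**Figure D2:**
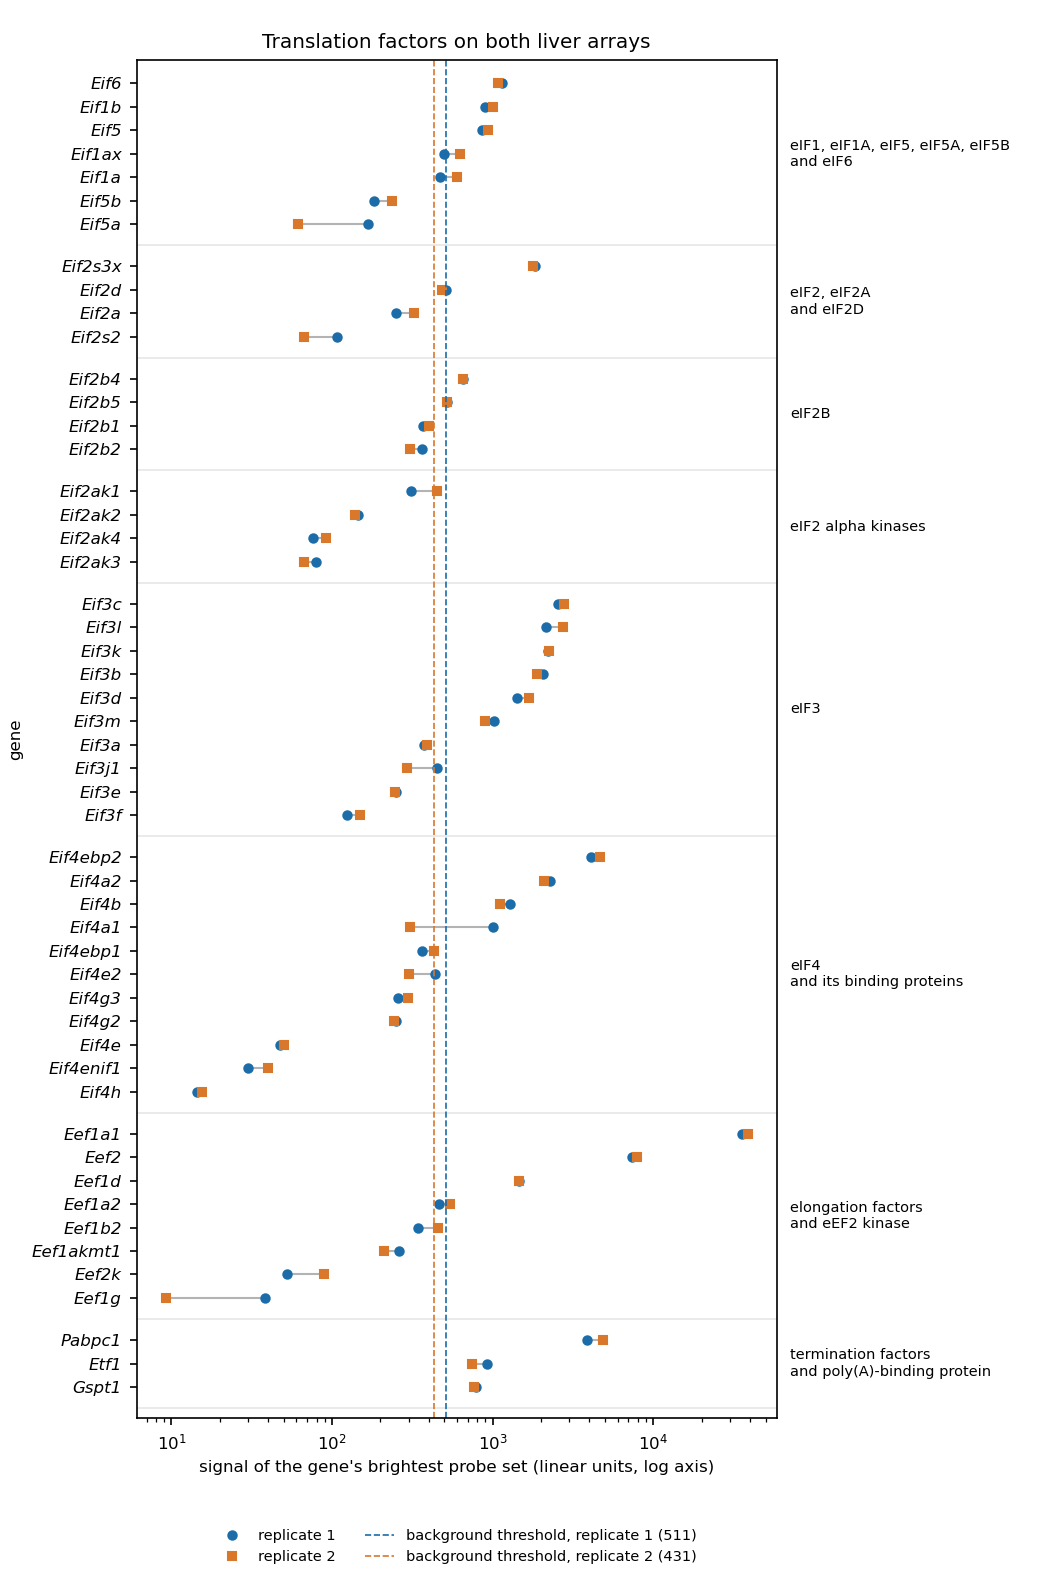
Signal of each translation factor gene's brightest probe set on replicate 1 (circles) and replicate 2 (squares), by role class, on a log axis; dashed lines are the background thresholds of 511.2 and 431.0. Eef1a1 lies far right of all other factors, Eif4h, Eef1g, Eif4enif1 and Eif4e lie at the left, and Eif4a1, Eif5a and Eef1g show the widest gaps between arrays.

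Synthetases are described next, with the sequence feature that some of them shared. Many cytosolic synthetase genes are known targets of ATF4, the transcription factor made when amino acids run short, which binds composite elements with the core TGATGCAA. That core was searched on both strands, where it also reads TTGCATCA, in windows from 250 bases before to 50 bases after each annotated start (RefSeq, GRCm38.p6). The core was chosen after the windows had been looked at. It stood in 4 of the 8 cytosolic synthetase genes that had a window, in 0 of 5 mitochondrial synthetase genes and in 0 of 41 factor genes. The share over all 27025 genes of the promoter table was 1.03%. With any base at the sixth letter (TGATGNAA, which includes the core) the counts were 5 of 8, 0 of 5 and 2 of 41, against 4.51% of all genes. A match describes letters in this window and is not a measured binding site. The stretches of 3 of these genes are shown 5′ to 3′ on the transcript strand, with the core in capitals, because they hold the letters shared by these synthetases.
Iars, chr13:49682126-49682155, plus strand: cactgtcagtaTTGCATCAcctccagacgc
Tars, chr15:11399655-11399684, minus strand: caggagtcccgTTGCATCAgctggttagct
Yars, chr4:129189895-129189924, plus strand: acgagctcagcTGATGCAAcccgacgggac

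The core began 15 bases before the annotated start in Tars, and at base 8 after it in Iars and base 4 in Yars. In this RNA, Tars, which charges threonine, gave 927.1 and 1018. Iars, for isoleucine, gave 546.6 and 603.5. Yars, for tyrosine, gave 501.9 and 547.6, under the threshold on replicate 1 by a narrow margin. Of the 4 cytosolic genes with a window and no core, Qars, for glutamine, gave 696.4 and 704.3 and Gars, for glycine, 531.2 and 503.5, both above background. Sars, for serine, gave 433.9 and 250.5, and Kars, for lysine, 72.0 and 61.4, both under it.

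In all, 8 of 15 cytosolic and 2 of 5 mitochondrial synthetase genes were above background on both arrays, against 29.5% of all named genes. With the 99th percentile of the background genes as threshold, 0 of the 20 synthetases were above it, against 16.3% of all named genes. With the mean of a gene's sets 13 of the 20 were, against 32.6% of all named genes, and Sars2 and Wars were not. Besides those given, Aars, for alanine, gave 937.6 and 856.2. Vars, for valine, gave 613.5 and 678.6, Rars, for arginine, 589.5 and 524.1, and Wars, for tryptophan, 522.4 and 451.0. The last was close to the threshold on both arrays. Under it were Lars (367.7 and 388.1), Nars (362.3 and 327.3), Hars (252.3 and 309.5) and Cars (72.1 and 95.7), which charge leucine, asparagine, histidine and cysteine. Of the mitochondrial enzymes, Fars2 (733.2 and 756.3) and Sars2 (673.6 and 711.6) passed. Iars2 (401.3 and 415.7), Tars2 (382.8 and 397.4) and Rars2 (359.3 and 257.2) did not. Most synthetases thus lay on either side of the threshold, between percentiles 55.6 for Hars and 83.1 for Tars. Only Cars and Kars fell below the middle of the array. Gars and Kars each also supply the mitochondrial form of their enzyme.

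**Figure D3:**
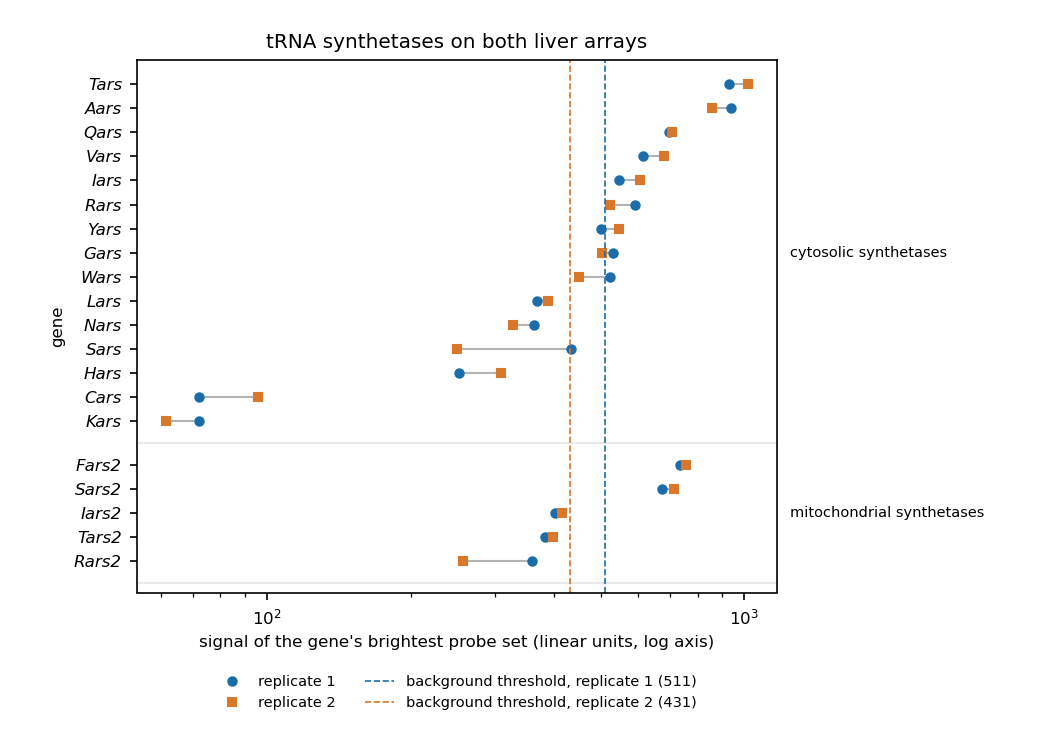
Signal of each synthetase gene's brightest probe set on replicate 1 (circles) and replicate 2 (squares), cytosolic enzymes above and mitochondrial ones below, on a log axis with the background thresholds dashed. Tars and Aars lie highest, Kars and Cars lie apart at under 100, and all others lie between 250.5 and 756.3.

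Of 59 related translation genes listed outside the rule, 43 were measured and 18 of these were above background (41.9%, against 29.5% of all named genes). Their median percentile was 68.4. Tpt1, a widely expressed growth-related protein, gave 25935 and 26773. Among regulators of initiation, the kinase Mknk2, which phosphorylates eIF4E, gave 2228 and 2649, Larp1, a repressor of ribosomal protein messengers, 1595 and 1766, and Pdcd4, an inhibitor of eIF4A, 1478 and 1223. Mtor gave 671.4 and 615.9 and its inhibitor Tsc2 874.3 and 1105. Other regulators of the same list were under the threshold on both arrays: the second eIF4E kinase Mknk1 (330.5 and 372.6), Tsc1 (343.4 and 350.5), the ribosomal protein S6 kinase Rps6kb2 (93.9 and 177.1) and Paip2, an inhibitor of the poly(A)-binding protein (407.6 and 380.0). Regulators of initiation thus lay on both sides of it, as Eif4ebp2 and Eif4ebp1 did by their brightest sets. The split depended on the threshold. Mknk1, Tsc1, Paip2 and Eif4ebp1 lay above the 90th percentile of the background genes (319.9 and 318.5). Eif4ebp1, only just under the threshold on replicate 2, also passed with the mean of a gene's sets.

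In the stress branch that acts through eIF2, Atf4 gave 1472 and 1624, and Asns, the asparagine synthetase gene controlled by ATF4, 731.1 and 710.4. Ppp1r15b, the constitutive partner of the eIF2 alpha phosphatase, gave 1237 and 1112, while the inducible partner Ppp1r15a gave 251.4 and 419.1. Ddit3, encoding CHOP (45.4 and 52.4), and Trib3 (185.9 and 253.8) were also under the threshold on both arrays. The other genes above background were Pabpc4, the ribosome rescue genes Abce1 and Hbs1l, the mitochondrial factors Tufm and Mtif2, the synthetase cofactors Aimp1 and Aimp2, Nop2 and Akt1. Their signals ran from 445.3 to 1287.

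How firmly a gene could be placed depended on its probe sets. Of the 71 genes 53 had a single set, and 18 had several, 44 sets in all. In 9 of the 18 the brightest and dimmest sets were over 4-fold apart, against 52.9% of all genes with several sets. In 8 of the 18 some sets were above background and others were not, against 31.1%. None of the 18 had all its sets above background, against 6.9% of all genes with several sets, and 10 had none above, against 62%.

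The widest gap was in Eif3l (75.2-fold), whose other set gave 32.5 and 32.4, followed by Eif3b (63.1-fold), whose other set gave 33.2 and 29.6. Eif4b was read by 4 sets, and the bright one stood alone, since the others gave 229.6 and 251.2, 56.5 and 58.1, and 47.2 and 16.2. The last of these was designed from the same sequence record as the bright set. For Eif4ebp2 the second set gave 1436 and 1733, also above background, and the third 178.3 and 159.0. Etf1 had 4 of its 5 sets above background, between 652.5 and 919.8, and the fifth at 124.9 and 47.1. The dim set of Eef1b2 gave 55.6 and 12.9, and that of Eif2d 19.3 and 75.7. Sars2 and Wars completed the 9 at 9.01-fold and 4.18-fold.

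In 5 of these 9 genes the dimmest set had a number beginning with 161 or 162. The matching share of all genes is not given here, so this count does not set the 9 genes apart. The translation genes had 11 such sets in 10 genes, and 0 of the 11 were above background, their signals running from 4.20 to 258.9. Over the whole array 8.32% of sets with these numbers were above background, against 26.5% of the others, and 35 of the other 86 sets of the translation genes were. Only Eef1g, the exchange factor gamma subunit, was read by such a set alone. What sets this block of the array apart was not tested. The grouping by number was chosen after the values were seen.

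**Figure D4:**
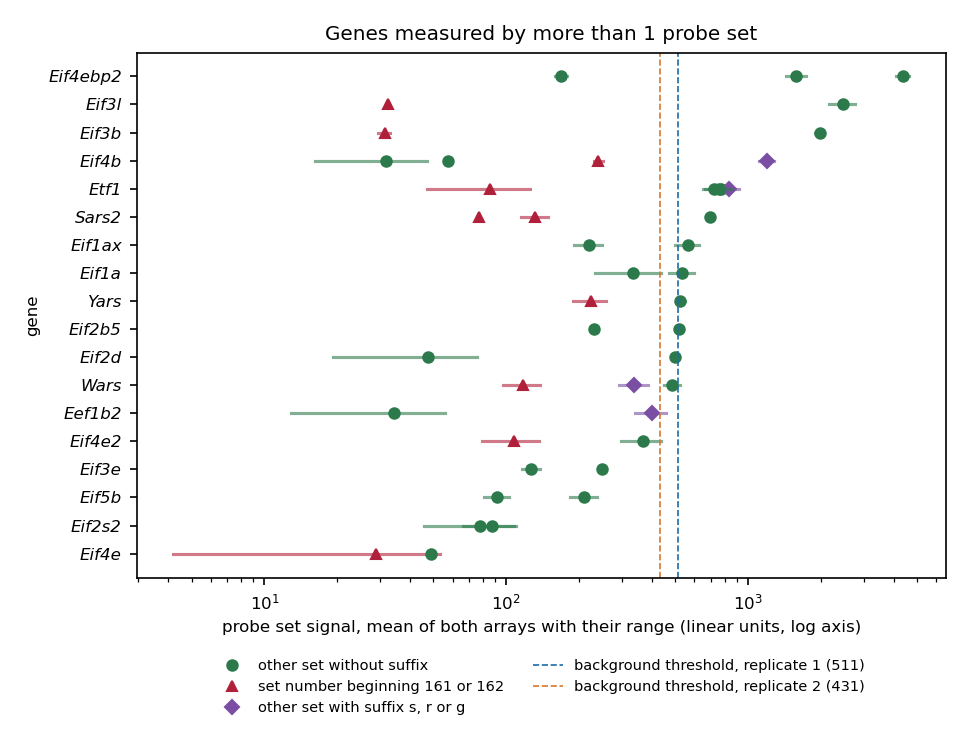
Signals of all 44 probe sets of the 18 genes with several sets, as the mean of both arrays with the range between them, on a log axis; triangles are sets numbered 161 or 162, diamonds other sets with a suffix, circles the rest. All triangles lie left of the dashed thresholds, and the sets of Eif3l, Eif3b and Eif4b span the widest distances.

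The arrays were also compared with each other. Differences are log2 of replicate 2 over replicate 1, after subtracting the median difference, in the brighter 50% of genes, which held 57 of the 71. Of the 57 genes 1 differed over 2-fold, Eif4a1, against 1.11% of all genes in the brighter 50% (0.412% higher and 0.703% lower on replicate 2). It was lower on replicate 2, by 3.24-fold, above the threshold on replicate 1 and under it on replicate 2, and its single set carries the suffix r, which marks sets designed under relaxed probe rules. Among them 32 were higher and 25 lower on replicate 2, with a median of 0.05. The next widest differences were in Sars (-0.79), Eif3j1 (-0.63), Eif4e2 (-0.55) and Eif2ak1 (0.54), none of which was above background on both arrays.

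Among the 31 genes above background on both arrays, the SD of the log2 difference was 0.16, against 0.22 for all genes above background. The median size of the difference was 0.13 in each. Over the brighter 50% of genes the order was the other way, with an SD of 0.34 for the 57 translation genes and 0.31 for all genes. The 31 leave out Eif4a1, Sars and Eif3j1, so the smaller SD does not show closer agreement of the translation genes. Pabpc1 (0.33 higher on replicate 2), Eif3l (0.35 higher) and Etf1 (-0.31) differed most among the 31. Eif2b4, Eif2b5 and Eef1d differed by less than 0.01. Across the 71 genes the log2 signals of the arrays had a Pearson correlation of 0.97 and a Spearman correlation of 0.96; the points are genes of the same 2 arrays and not independent replicates. Each difference rests on a single pair of arrays and could not be checked in a replicate.

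**Figure D5:**
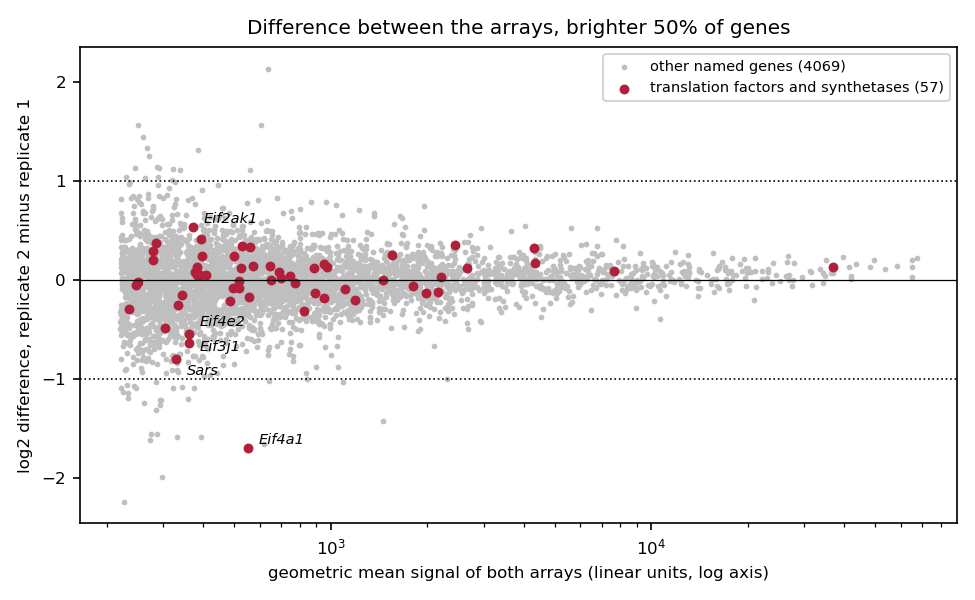
Log2 difference between the arrays (y axis) against the mean signal (x axis, log) for the brighter 50% of genes, with 57 translation genes in red and 4069 other genes in grey; dotted lines mark 2-fold. Eif4a1 at -1.69 is the only red point beyond a dotted line. The next widest, Sars, Eif3j1, Eif4e2 and Eif2ak1, belong to genes not above background on both arrays. Brighter red points did not narrow steadily, with Pabpc1 at 0.33 and Eif3l at 0.35.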

How the data were processed

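Total RNA of 2 mouse samples was measured on single-colour Affymetrix arrays. The deposited table gives 1 signal intensity per probe set and array on a linear scale. The sources used here give no summary method, scaling step or software; the mean after trimming 2% at each end was 500.5 on both arrays. Of 12488 probe sets, 66 were controls, 396 named several genes and 1237 none. Genes come from the platform annotation; all 71 members matched RefSeq (GRCm38.p6) by identifier with the same symbol. Promoter windows matched 54 of the 71; 1 stretch is not reported here.

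The members, gene lists, thresholds and alternatives were chosen with earlier results of these data known. All members are named; values are given for members above background, differing over 2-fold or with disagreeing probe sets, and for most others. From each list, genes above background or chosen after their values were seen are named. The background list held 130 genes, 118 of them measured; 5 were above the threshold. The median log2 shift subtracted was -0.0026. Arrays carry no count depth, and their number limits the precision. Alternatives were other thresholds, the mean of a gene's sets, sets without suffix, quantile normalization, no shift, log2(value + 32), all genes, the brightest 25%, an 8-fold limit for probe sets, and leaving out each array. The shift between the arrays, the 2-fold calls, the percentiles, the quantile normalization and the spread of probe sets were first checked on simulated data. The background thresholds, the counts above them and the promoter search were not checked in this way. The software was numpy 2.4.6 and pandas 2.3.3 in Python 3.11.15, with scipy 1.17.1 for ranks and matplotlib 3.10.9 for plots.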

Additional observations from a re-analysis of the deposited data

Results flagged for a closer look

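A probe set left out of all comparisons carried signal above the background threshold on both arrays. It is annotated to Eif4a3, the helicase of the exon junction complex, together with 2 near-identical copies, Eif4a3l1 and Gm5576, so it could not be given to 1 gene. It gave 1056.2 on replicate 1 and 1082.2 on replicate 2.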

How the results depend on the processing

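The count of 31 translation genes above background depended most on the threshold. It was 15 with the 99th percentile of the background genes (16.3% of all genes) and 60 with the highest bacterial or yeast control set (64.4%), and the related genes went from 18 to 7 and to 37. The 16 genes lost at the 99th percentile were the 10 synthetases, Eif1b, Eif2b4, Eif2b5, Eif5, Etf1 and Gspt1; Eif3b, Eif3l, Eif4b, Sars2 and Wars were lost with the mean of sets, and Eif4b without the suffixed sets. The count was 44 with the 90th percentile (38.3%), 38 with the mean of a gene's sets (32.6%), and 41 of 69 measured without the suffixed sets (36.4%). On replicates 1 and 2 alone it was 32 (30.2%) and 38 (33.7%). The share of translation genes above background exceeded that of all genes in each of these. In 12 genes the signal stayed above background in every setting run other than the control sets. The median percentile was 69.4 and moved to 68.3 with the mean of a gene's sets and to 66.7 without the suffixed sets. It ran from 67.5 to 67.9 with 1 array left out. The count of 1 gene over 2-fold became 3 with all genes (14.1% of all genes), and 0 with the brightest 25% and without the suffixed sets, both of which leave out Eif4a1. Without the suffixed sets 2 of 11 genes had sets over 4-fold apart, instead of 9 of 18. The share of all genes in that setting is not given here. No paired analysis was possible because the labels define 1 group. The signal over background limits every gene near the threshold, and 13 of the 71 lay between the 90th and 95th percentile thresholds.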

Other observations

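Several synthetases form a large complex with 3 scaffold proteins. Of 11 listed genes of that complex 8 were measured here, and 5 were above background on both arrays, against 29.5% of all named genes: the scaffold genes Aimp1 (686.0 and 632.4) and Aimp2 (625.8 and 571.2) and the synthetase genes Qars, Rars and Iars. Eprs, which charges glutamate and proline and lies outside the naming rule, gave 350.0 and 289.1 and was not above it, like Lars and Kars. With the 99th percentile of the background genes as threshold, 0 of the 8 were above it.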
